A study of Homo sapiens with 8 samples.

Results

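Brain-metastatic breast carcinoma cells that had been partly depleted of connexin 43 and grown with astrocytes were compared with control carcinoma cells grown alone, to describe the response to astrocytes that remains when the gap junction protein is reduced. The cells were MDA231-BrM2, a brain-seeking population selected from the breast carcinoma line MDA-MB-231. Their translated RNA was isolated by translating ribosome affinity purification (TRAP), in which anti-GFP beads pull down tagged polysomes, so that a mixed lysate yields mainly RNA of the tagged carcinoma cells. Of the 8 libraries of the series, 6 enter the comparison. They are 2 of control cells alone (consh in the titles), 2 of cells with a first hairpin against connexin 43 in coculture (Cx43sh1) and 2 of cells with a second hairpin in coculture (Cx43sh2). The cocultures were kept for 24 h at 1 astrocyte per carcinoma cell in DMEM with 10% serum. The remaining 2 libraries, control cells with astrocytes, are given gene by gene for scale and are called the control coculture. The design held no depleted cells grown alone, so an effect of the hairpins and an effect of the astrocytes cannot be told apart in the comparison with control cells alone. The species of the astrocytes is not given in the sources used here.

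Connexin 43, encoded by GJA1, forms hexameric hemichannels that dock between neighbouring cells into gap junctions, which let ions and small metabolites pass. Astrocytes are coupled to each other by such channels. The cyclic dinucleotide cGAMP, made by the DNA sensor cGAS, can pass through gap junctions into a neighbouring cell, where STING starts production of interferon and inflammatory cytokines. Secreted interferon acts through its receptors and STAT and IRF factors on genes that carry an interferon-stimulated response element (ISRE), while TNF and IL-1 act largely through NF-kB.

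The 15806 genes with a mean of at least 10 counts over the 8 libraries were tested, of 57445 in the table. The libraries held 38219702 to 48997555 gene counts, and 3 counts corresponded to 0.0624 to 0.0805 CPM, counts scaled to the library total. This floor and the counting intervals below cover counting error only. CPM used totals scaled by TMM factors. Changes are log2 fold changes (log2FC) ± SE, as the mean of both hairpins minus control cells alone, from edgeR's quasi-likelihood test on all 8 libraries, and a gene is said to have risen or fallen where the Benjamini-Hochberg adjusted p is under 0.05. The series design calls the 2 libraries of each group independent replicates. Control library 1 stood apart in matrix genes: the summed level of 21 fibroblast and matrix genes was 3159 CPM there, 1746 CPM in control library 2, and 1349 to 1518 CPM in the depleted cocultures. Markers of the labelled line were present, VIM at 56967 to 84581 counts and CD44 at 14501 to 17726 counts per library. The summed level of 20 tested breast line markers was 5567 to 5940 CPM in control cells alone and 5227 to 5671 CPM in the depleted cocultures. Single members moved in both directions: 2 rose and 3 fell, beside 10.8% and 6.34% of all tested genes. KRT81 and KRT7 rose (log2FC 1.14 and 0.74), while KRT19, EPCAM and LGALS1 fell (log2FC -0.77, -0.43 and -0.43). Of the astrocyte markers AQP4 had 2 to 7 counts, S100B 0 to 2 and GJB6 0 to 1 in any library. The 20 astrocyte markers that passed the filter, GJA1 among them, summed to 603 to 615 CPM in control cells alone and 550 to 593 CPM in the depleted cocultures. That sum was mostly CST3 (mean 299 CPM alone and 270 CPM after depletion), GLUL (173 and 164.8 CPM) and the hairpin target GJA1 (48.7 and 30.2 CPM), while 6 less abundant members rose, as given below.

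The depletion of connexin 43 was partial. GJA1 was at 51.1 and 46.3 CPM in control cells alone, 27.8 and 27.8 CPM with hairpin 1, 31.7 and 33.8 CPM with hairpin 2, and 65.9 and 64.6 CPM in the control coculture. All 4 depleted libraries lay below all 4 libraries of the control line. GJA1 fell by 0.69 ± 0.06 on the log2 scale against control cells alone (edgeR adjusted p = 0.000366), and hairpin 2 minus hairpin 1 was 0.24 ± 0.07 (adjusted p = 0.705). In bulk RNA, less of a transcript per cell and fewer cells that carry it cannot be told apart, here and below. Of the other connexins and pannexins, GJB2, which encodes connexin 26, rose from 7.85 and 8.59 CPM to 13.3 to 14.4 CPM (log2FC 0.76 ± 0.08, adjusted p = 0.000727) and was at 14.3 and 13.4 CPM in the control coculture. The pannexin gene PANX1 rose by 0.33 ± 0.07 (adjusted p = 0.0174), a call that was lost without either control library or hairpin 2 library 2 (adjusted p of 0.143, 0.0654 and 0.078). GJA3, GJC1 and PANX2 did not pass the test, with log2FC of 0.26, -0.12 and -0.07, and GJA3 passed it without hairpin 1 library 1 (adjusted p = 0.0272).

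Against control cells alone, 2709 genes (17.1%) differed in the depleted cocultures, 1707 higher (10.8%) and 1002 lower (6.34%). The shares of 10.8% and 6.34% are the background for the count of rises and falls in each list below. Some genes belong to more than 1 list, so the counts of different lists are not independent. The change was at least 2-fold for 147 of those that rose (0.93%) and for 57 of those that fell (0.361%). The counts moved with single libraries: without control library 1 there were 531 calls, without control library 2 there were 791, without hairpin 2 library 1 there were 1270 and without hairpin 2 library 2 there were 831, while without hairpin 1 library 1 there were 4717. Without each of the 8 libraries in turn, 303 of the genes kept a higher call and 111 a lower one. In 3810 genes (24.1%) all 4 depleted libraries lay above both control libraries, and in 3252 (20.6%) all 4 lay below. Taken singly, hairpin 1 gave 2428 calls (15.4%) and hairpin 2 gave 1335 (8.45%) against the same control cells.

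The 12 largest rises were led by antiviral genes, an adhesion receptor and neutrophil-attracting chemokines. They were taken among genes with at least 50 mean counts in a compared group. The rule also required all 4 depleted libraries to lie above both control libraries. CMPK2, a mitochondrial nucleotide kinase induced by interferon, was at 0.164 and 0.0831 CPM in control cells alone, 4.18 and 3.60 CPM with hairpin 1, and 5.21 and 6.21 CPM with hairpin 2 (log2FC 5.25 ± 0.23, adjusted p = 1.36e-05). In the control coculture it reached 37.2 and 36.6 CPM. RSAD2, which encodes the antiviral enzyme viperin and neighbours CMPK2 in the genome, had 0 and 6 counts in control cells alone. It was at 1.60, 1.79, 2.22 and 2.25 CPM in the depleted libraries and at 13.8 and 13.7 CPM in the control coculture. VCAM1, a ligand for the leukocyte integrin VLA-4, had 1 and 4 counts in control cells alone, 1.57, 1.33, 1.69 and 1.89 CPM after depletion and 11.7 and 12.7 CPM in the control coculture. For these genes near the floor, the ratio of reads per library total was 39.7 for CMPK2, with an exact 95% interval of 22.1 to 79.9. It was 29.7 in RSAD2 (13.5 to 81.5) and 29.4 in VCAM1 (12.5 to 91.4). The sizes depended on which control library was used: the log2FC of RSAD2 was 3.92 without control library 1 and 9.33 without control library 2, where the remaining library has 0 counts and the fitted value is no bound. That of VCAM1 was 4.22 and 5.92. Both genes remained called in each of these fits. The depleted libraries were below both libraries of the control coculture in all 3 genes.

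The chemokines CXCL6 and CXCL5 kept most of their level. CXCL6 was at 0.352 and 0.416 CPM in control cells alone, 7.19 and 5.62 CPM with hairpin 1, 7.45 and 6.98 CPM with hairpin 2, and 9.82 and 12.3 CPM in the control coculture (log2FC 4.13 ± 0.22, adjusted p = 2.77e-05). CXCL5 was at 2.51 and 2.27 CPM in control cells alone, 18.4 and 16.9 CPM with hairpin 1, 21.0 and 18.9 CPM with hairpin 2, and 24.8 and 27.0 CPM in the control coculture (log2FC 2.98 ± 0.10, adjusted p = 9.35e-06). Against the control coculture the depleted cocultures were lower by a log2FC of -0.70 ± 0.12 in CXCL6 (adjusted p = 0.0109) and -0.46 ± 0.08 in CXCL5 (adjusted p = 0.0085). BDKRB2, the bradykinin B2 receptor, had 7 and 6 counts in control cells alone and rose to 1.57 to 2.00 CPM (log2FC 3.62 ± 0.27, adjusted p = 0.000153), beside 2.57 and 1.93 CPM in the control coculture. ALOX5AP, needed for leukotriene synthesis, rose to 0.917 to 1.64 CPM from 0.188 and 0.146 CPM (log2FC 3.05 ± 0.32, adjusted p = 0.000848). The remaining rises among the 12 were IFI44L (log2FC 3.55), FAM65C (2.74), C1QTNF1 (2.73), LRRN3 (2.49) and MX1 (2.25), all with adjusted p-values of 0.000269 or less.

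**Figure D1:**
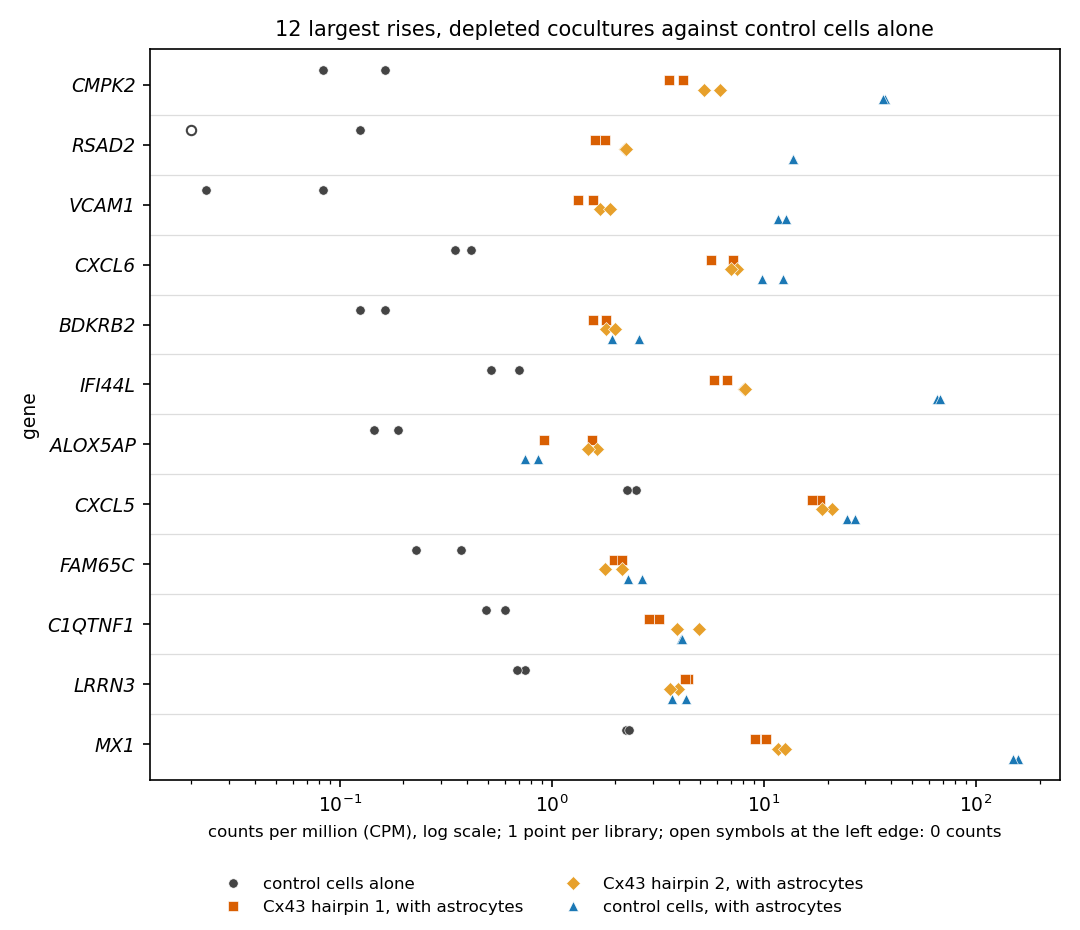
Levels of the 12 genes with the largest rises in each library, in CPM on a log axis, with 1 point per library and an open symbol for a library with 0 counts. The rule of choice required the 4 depleted libraries to lie to the right of both libraries of control cells alone. MX1 and IFI44L stay far to the left of the control coculture, whereas LRRN3 and BDKRB2 overlap it.

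The 250 bases before the annotated start are printed for 4 of these genes, an interferon-induced gene, VCAM1 and both chemokines. Among the 12 largest rises, only these 4 had a match to a response element that was searched for. The sequences are from RefSeq on the build GRCh38.p14, at chr1:78620198-78620447 (plus strand), chr1:100719492-100719741 (plus strand), chr4:73836428-73836677 (plus strand) and chr4:73998678-73998927 (minus strand). Capitals mark matches on either strand to the ISRE core GAAANNGAAA or to the NF-kB consensus motif. In CXCL6 and CXCL5 the capitals are 2 overlapping NF-kB matches.
IFI44L: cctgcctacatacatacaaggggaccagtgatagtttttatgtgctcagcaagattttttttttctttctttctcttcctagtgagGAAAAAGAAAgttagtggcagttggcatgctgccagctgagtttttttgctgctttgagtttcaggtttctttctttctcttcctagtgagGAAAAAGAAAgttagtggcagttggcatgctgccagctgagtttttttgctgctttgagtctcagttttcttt
VCAM1: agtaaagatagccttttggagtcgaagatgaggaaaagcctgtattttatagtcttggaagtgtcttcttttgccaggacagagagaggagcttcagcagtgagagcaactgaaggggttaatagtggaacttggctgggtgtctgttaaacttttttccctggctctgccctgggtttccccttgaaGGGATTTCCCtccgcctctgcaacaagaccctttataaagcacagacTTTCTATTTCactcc
CXCL6: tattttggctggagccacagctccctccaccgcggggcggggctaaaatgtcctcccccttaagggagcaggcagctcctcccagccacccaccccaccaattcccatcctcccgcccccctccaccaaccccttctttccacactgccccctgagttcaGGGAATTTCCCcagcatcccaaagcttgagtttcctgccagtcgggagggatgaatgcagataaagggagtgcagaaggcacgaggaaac
CXCL5: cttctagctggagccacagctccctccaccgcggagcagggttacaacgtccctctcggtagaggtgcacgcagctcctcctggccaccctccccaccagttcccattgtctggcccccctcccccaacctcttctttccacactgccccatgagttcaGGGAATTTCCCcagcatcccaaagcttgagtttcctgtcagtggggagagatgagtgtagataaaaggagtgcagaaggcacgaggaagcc
IFI44L holds 2 ISRE cores, VCAM1 has 1 of each motif, and both chemokines carry the same NF-kB stretch at nearly the same distance from the start. The ISRE core was in 839 of 27305 promoters of this length in the table (3.07%), in 263 of 11205 promoters of tested genes (2.35%) and in 24 of 45 matched promoters of the tested interferon-stimulated genes (53.3%). Among those interferon-stimulated genes it was in 16 of 30 that rose and in 8 of 15 that did not pass the test, the same share. The NF-kB motif was in 1380 of all promoters (5.05%), in 681 promoters of tested genes (6.08%) and in 15 of 31 matched promoters of the TNF and NF-kB list (48.4%). Of 11 matched promoters of the 12 largest rises, 2 held the ISRE core and 3 the NF-kB motif. A part of these motifs in the rises was not tested. CMPK2, RSAD2, MX1 and BDKRB2 had no match to either motif in this window. Only the exact spacing of the ISRE core was searched, before 1 annotated start per gene. The RSAD2 window holds repeated stretches of ggaaacgaaa, which have 1 base between the GAAA copies and were not counted. No match here therefore does not mean that a gene lacks an ISRE.

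The interferon-stimulated genes rose in part. Of 56 tested members, 38 rose and none fell against control cells alone, beside 10.8% of all tested genes that rose, and the median log2FC was 0.65 beside -0.0021 over all tested genes. Without either control library there were 27 rises, and 26 members kept the call without each library in turn. All 4 depleted libraries were above both control libraries in 42 members (24.1% of all tested genes) and below both libraries of the control coculture in 56, beside 18.1% of all tested genes. Taken singly, hairpin 1 gave 31 rises in the list (9.82% of all tested genes rose) and hairpin 2 gave 38 (5.8% of all tested genes). The mean level after depletion was at a median of 23.6% of the control coculture mean, from 3.98% to 74.5%, where control cells alone had a median of 12.9%. The median log2FC was 2.96 for the control coculture minus control cells alone and -2.08 for the depleted cocultures minus the control coculture, contrasts that each share libraries with the main one.

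Effector genes spanned a wide range. OAS1, which makes 2-5A to activate RNase L, was at 0.633 and 0.707 CPM in control cells alone, 2.36 and 1.83 CPM with hairpin 1, 3.59 and 3.46 CPM with hairpin 2, and 68.3 and 72.8 CPM in the control coculture (log2FC 2.01 ± 0.15, adjusted p = 0.000156). MX1, a dynamin-like GTPase that blocks viruses, was at 2.25 and 2.33 CPM in control cells alone, 10.2 and 9.14 CPM with hairpin 1, 11.7 and 12.7 CPM with hairpin 2, and 159 and 149 CPM in the control coculture. IFIT1, which binds viral RNA ends, was at 6.45 and 7.15 CPM, then 19.4, 16, 28.0 and 25.8 CPM after depletion, and 268 and 291 CPM in the control coculture (log2FC 1.68 ± 0.10, adjusted p = 6.19e-05). In these genes the depleted libraries were separated from both other groups. XAF1, a pro-apoptotic interferon target, rose by 1.55 ± 0.08, IFIT2 by 1.44 ± 0.08, OAS2 by 1.37 ± 0.06 and PARP9 by 1.26 ± 0.08, each with an adjusted p of 6.19e-05 or less. EIF2AK2, the double-stranded-RNA kinase PKR, was at 111 and 113 CPM in control cells alone and at 148 to 163 CPM after depletion (log2FC 0.49 ± 0.06, adjusted p = 0.00251).

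Other highly expressed interferon targets did not pass the test. ISG15, the ubiquitin-like modifier, was at 50.2 and 50.9 CPM in control cells alone, 58.7 and 49.5 CPM with hairpin 1, 78.9 and 66.7 CPM with hairpin 2, and 592 and 759 CPM in the control coculture (log2FC 0.31 ± 0.12, adjusted p = 0.102). BST2, which tethers budding virus, had a log2FC of -0.05 ± 0.11 (adjusted p = 0.773), with 98.3 and 107 CPM in control cells alone and 81.8 to 109 CPM after depletion. IFI27, HERC5 and UBE2L6, the last 2 being enzymes of ISG15 conjugation, had log2FC of 0.32, 0.12 and 0.10 (adjusted p of 0.298, 0.288 and 0.353). With no filter on low counts, ISG15 (adjusted p = 0.00137) and IFI27 (adjusted p = 0.0369) passed the threshold.

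**Figure D2:**
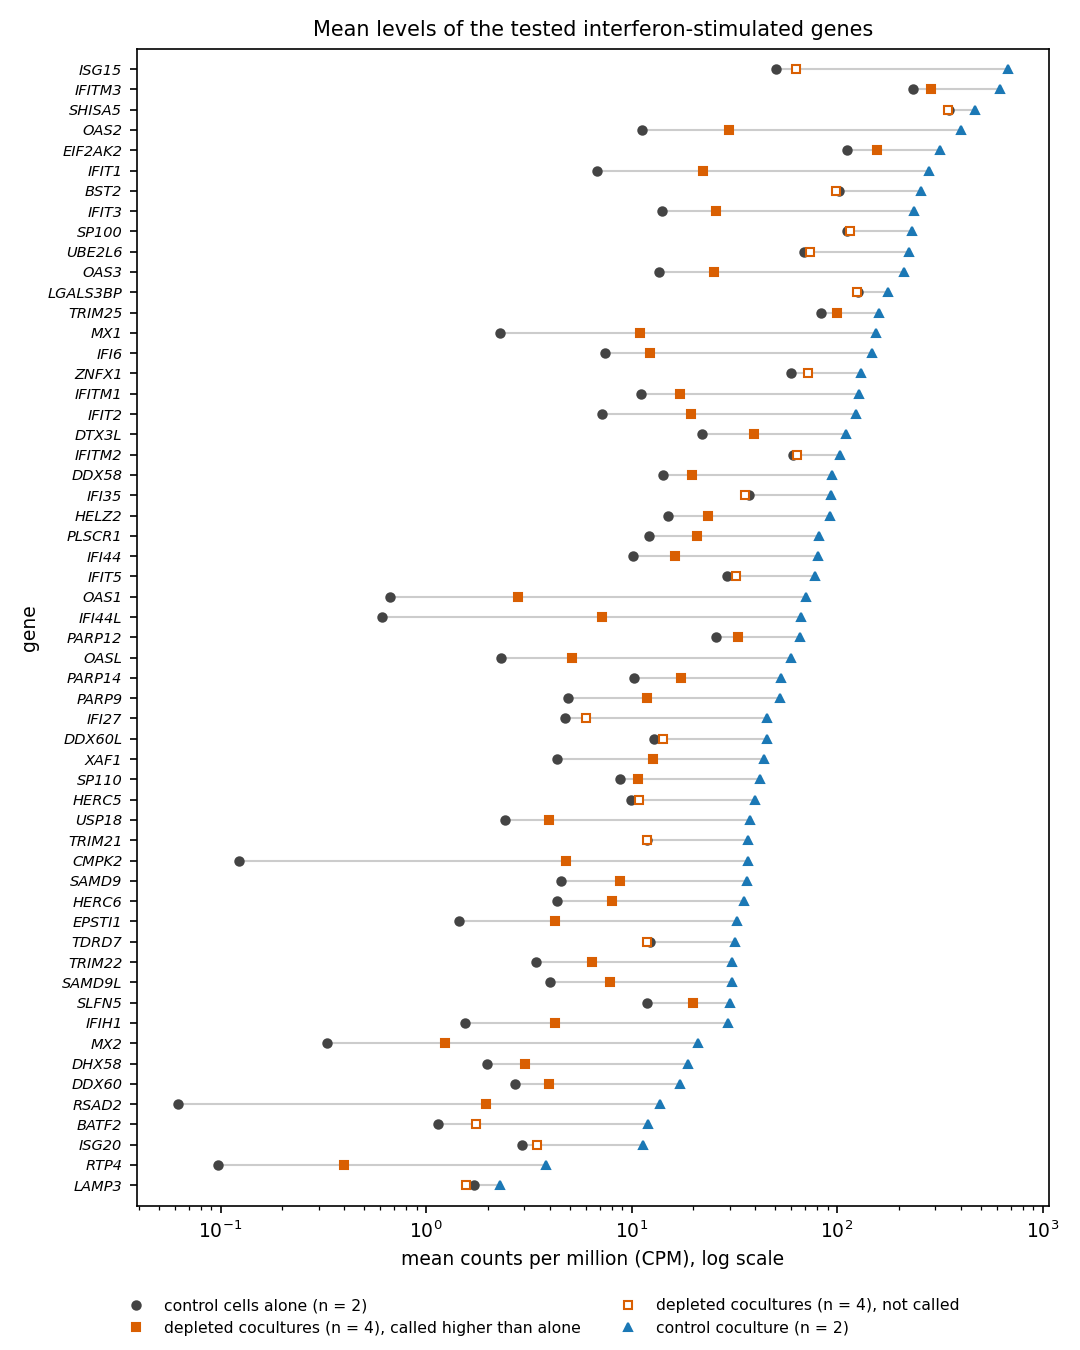
Mean levels of the 56 tested interferon-stimulated genes in CPM on a log axis, ordered by their level in the control coculture, for control cells alone (circles, n = 2), depleted cocultures (squares, n = 4) and the control coculture (triangles, n = 2). Filled squares mark the 38 genes that rose. In CMPK2, RSAD2, IFI44L and MX1 the square stands well to the right of the circle, whereas in ISG15, BST2 and UBE2L6 it lies close to the circle.

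Sensors and signalling genes also rose in part. Of 18 tested sensing genes, 9 rose and none fell, and the number was 4 without either control library. IFIH1, the RNA sensor MDA5, was at 1.59 and 1.52 CPM in control cells alone, 3.76 to 4.89 CPM after depletion and 30.1 and 28.6 CPM in the control coculture (log2FC 1.44 ± 0.11, adjusted p = 0.000176). The DNA sensor AIM2 rose by 0.87 ± 0.10 (adjusted p = 0.00112), the endosomal RNA receptor TLR3 by 0.84 ± 0.10 (adjusted p = 0.00174), and DDX58, which encodes RIG-I, by 0.47 ± 0.06 (adjusted p = 0.0021). MB21D1, which encodes cGAS, was at 23.9 and 23.5 CPM in control cells alone and 25.2 to 27.1 CPM after depletion (log2FC 0.14 ± 0.06, adjusted p = 0.158). TMEM173, which encodes STING, was at 24.2 and 23.7 CPM and 24.6 to 27.9 CPM (log2FC 0.11 ± 0.07, adjusted p = 0.321). Neither of these passed the test.

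Of 16 interferon ligand, receptor and signalling genes that were tested, 7 rose and none fell. This count was 2 without control library 1 and 4 without control library 2 or either hairpin 2 library. IRF7, the factor that amplifies interferon production, was at 13.5 and 12 CPM in control cells alone, 16.9 to 20.4 CPM after depletion and 101 and 99.0 CPM in the control coculture (log2FC 0.55 ± 0.08, adjusted p = 0.0031). STAT2 and IRF9, which join in the interferon-activated factor and were chosen after their values were seen, had log2FC of 0.21 ± 0.13 (adjusted p = 0.288) and 0.47 ± 0.24 (adjusted p = 0.203). The receptor chains IFNAR2 and IFNGR2 rose by 0.44 ± 0.07 and 0.45 ± 0.07 (adjusted p of 0.00613 and 0.00574). Both calls were lost without control library 1, with adjusted p of 0.0711 and 0.0788. Their depleted minus control coculture differences were 0.07 (95% interval -0.09 to 0.23) and -0.10 (-0.26 to 0.07).

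Genes known for their induction by interferon gamma numbered 23 tested, of which 12 rose, none fell, and 7 rose without either control library. The apolipoproteins L APOL6, APOL1 and APOL3 rose by 1.00 ± 0.08, 0.67 ± 0.08 and 0.70 ± 0.10. GBP2, a guanylate-binding protein, rose from 0.797 and 0.790 CPM to 1.59 to 1.98 CPM (log2FC 1.14 ± 0.17, adjusted p = 0.00413), and SOCS1, a feedback inhibitor of JAK kinases, rose by 0.53 ± 0.07 (adjusted p = 0.00196). In antigen processing 4 of 20 genes rose and 1 fell, beside 10.8% and 6.34% of all tested genes, while the median log2FC was -0.08. None of the 5 was called without control library 1 or without control library 2. Without either hairpin 2 library there was 1 rise and no fall, and without hairpin 1 library 1 there were 4 falls. The peptide transporter TAP1 was at 118 and 116 CPM in control cells alone, 135 to 155 CPM after depletion and 355 and 341 CPM in the control coculture (log2FC 0.35 ± 0.06, adjusted p = 0.00964, but 0.0829 and 0.0769 without control library 1 and 2).

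TNF and NF-kB target genes rose as well. Of 39 tested, 19 rose and 2 fell, with a median log2FC of 0.36. The median for the depleted cocultures minus the control coculture was -0.46. CCL2, the monocyte chemokine, chosen after its values were seen, was at 4.34 and 4.20 CPM in control cells alone, 20.1 and 14.3 CPM with hairpin 1, 19.2 and 17.4 CPM with hairpin 2, and 18.0 and 21.9 CPM in the control coculture (log2FC 2.06 ± 0.16, adjusted p = 0.000165). Its depleted libraries overlapped the control coculture, with a difference of -0.17 (95% interval -0.47 to 0.13). LIF, a cytokine of the IL-6 family, was at 70.4 and 65.7 CPM, 113 to 124 CPM, and 145 and 135 CPM (log2FC 0.82 ± 0.06, adjusted p = 0.00016). BCL3, an NF-kB cofactor, rose by 0.89 ± 0.07, the adhesion receptor ICAM1 by 0.58 ± 0.07 and the growth factor CSF1 (also chosen after its values were seen) by 0.76 ± 0.07, with adjusted p of 0.00016, 0.00186 and 0.000507. The count of falls in this list was 1 without either control library or either hairpin 2 library.

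The hairpins differed from each other in 5 genes (0.0316% of those tested), of which 4 are described. Both cytokine and antiviral genes were among them. IL1B, the inflammatory cytokine, was at 3.45 and 3.78 CPM in control cells alone, 6.94 and 6.37 CPM with hairpin 1, 15.4 and 14.1 CPM with hairpin 2, and 18.3 and 19.5 CPM in the control coculture. Hairpin 2 minus hairpin 1 was 1.15 ± 0.09 (adjusted p = 0.00678). OAS2 was at 11.1 and 11.5 CPM in control cells alone, 24.3 and 22.9 CPM with hairpin 1, 36 and 35.9 CPM with hairpin 2, and 400 and 402 CPM in the control coculture, a hairpin difference of 0.61 ± 0.06 (adjusted p = 0.0400). RPN1, a subunit of the oligosaccharyltransferase, was at 143 and 137 CPM with hairpin 1 and 200 and 201 CPM with hairpin 2 (adjusted p = 0.0461). The heat shock gene HSPA6 was at 0.694 and 0.820 CPM with hairpin 1 and 2.58 and 2.20 CPM with hairpin 2 (adjusted p = 0.0461). Both were chosen after their values were seen. RPN1 lay between 217 and 220 CPM in the 4 control libraries, so hairpin 1 was the lower group. The hairpin 2 mean exceeded the hairpin 1 mean in 51 of 56 interferon-stimulated genes (91.1%) and 32 of 39 TNF and NF-kB targets (82.1%), beside 48.0% of all tested genes. In the interferon-gamma-inducible list it did so in 15 of 23 genes (65.2%), with a median hairpin difference of only 0.029 on the log2 scale. GJA1 was 31.7 and 33.8 CPM with hairpin 2 and 27.8 CPM in both libraries with hairpin 1, and its part in this difference was not tested.

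Genes that rose or fell at least 2-fold were taken, with clone, antisense, pseudogene and similar entries left out. Of these, 37 had a depleted minus control coculture difference whose 95% interval lay within -0.5 to 0.5 on the log2 scale. The share of all tested genes with such an interval was not computed, so the count has no background. Of the 37, the 8 with the smallest p in the main comparison follow, and their closeness to the control coculture is how they were chosen. IL1R1, the receptor for interleukin 1, was at 23.0 and 24.5 CPM in control cells alone, 49.9 and 53.1 CPM with hairpin 1, 54.1 and 57.2 CPM with hairpin 2, and 48.1 and 47.7 CPM in the control coculture (log2FC 1.17 ± 0.06, adjusted p = 3.3e-05). LRRN3, a leucine-rich repeat membrane protein, was at 0.750 and 0.686 CPM, 3.61 to 4.42 CPM, and 4.32 and 3.70 CPM (log2FC 2.49 ± 0.14, adjusted p = 4.78e-05). ANGPTL4, a secreted inhibitor of lipoprotein lipase, was at 13.1 and 12.2 CPM, 26.1 to 30.4 CPM, and 28.3 and 28.6 CPM (log2FC 1.13 ± 0.07, adjusted p = 5.9e-05). The ETS factor SPDEF was at 6.87 and 6.42 CPM, 15.7 to 18.0 CPM, and 17.9 and 17.6 CPM (log2FC 1.31 ± 0.08, adjusted p = 6.19e-05). In these 4 genes the levels of the depleted libraries were all above control cells alone and at or near those of the control coculture.

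TP53INP1, a p53-induced stress gene, rose by 1.11 ± 0.06, the muscle-atrophy ubiquitin ligase FBXO32 by 1.10 ± 0.06, and SKIL, a SMAD-binding repressor that TGF-beta induces, by 1.19 ± 0.07, each with an adjusted p of 6.19e-05 or less. Within the narrow interval, TP53INP1 and SKIL were still higher than in the control coculture (0.28 ± 0.06, adjusted p = 0.0233, and 0.34 ± 0.07, adjusted p = 0.0215) and FBXO32 lower (-0.23 ± 0.06, adjusted p = 0.0458). The one fall among the 8 was KRTAP2-3, a hair keratin-associated protein gene, at 24.2 and 26.1 CPM in control cells alone, 6.46 to 8.76 CPM after depletion and 8.66 and 8.96 CPM in the control coculture (log2FC -1.74 ± 0.08, adjusted p = 1.36e-05). KRTAP genes have close copies, so reads may be split between them.

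Some genes differed in the same direction from both control groups. Against the control coculture, 3.37% of tested genes were higher and 5.85% lower in the depleted cocultures. Both contrasts use the same 4 depleted libraries. LDLRAD4, which dampens TGF-beta signalling, was at 2.70 and 2.52 CPM in control cells alone, 2.83 and 2.52 CPM in the control coculture, but at 6.17 and 7.82 CPM with hairpin 1 and 5.49 and 5.68 CPM with hairpin 2 (log2FC 1.26 ± 0.13, adjusted p = 0.000685). ST6GALNAC3, a sialyltransferase of glycolipids, was at 5.35 and 5.55 CPM, 8.81 to 10.4 CPM after depletion, and 5.50 and 4.96 CPM in the control coculture (log2FC 0.82 ± 0.08, adjusted p = 0.000614). The noncoding RNA MIAT rose by 1.25 ± 0.17 (adjusted p = 0.0025). ST6GAL2, DACT1 and PAPPA2 rose by 0.77, 0.79 and 0.67, calls that were lost without control library 1 (adjusted p of 0.0809, 0.0979 and 0.0615). That of ST6GAL2 was also lost without control library 2 (0.122) and hairpin 2 library 2 (0.0691). KRT19, a simple-epithelial keratin, was at 67.3 and 69.4 CPM in control cells alone, 70.1 and 71.8 CPM in the control coculture, but at 41.1, 39.2, 40.8 and 38.9 CPM in the depleted libraries (log2FC -0.77 ± 0.05, adjusted p = 0.00011). NDN, which restrains cell growth, and BTBD11 fell by 0.90 and 0.80 on the log2 scale and lay below both control groups, as did FMN2 and KIAA1549L, which fell by 1.25 and 1.15. In KRT19 and LDLRAD4 both hairpins moved the same way and no depleted library overlapped any of the 4 control libraries.

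**Figure D3:**
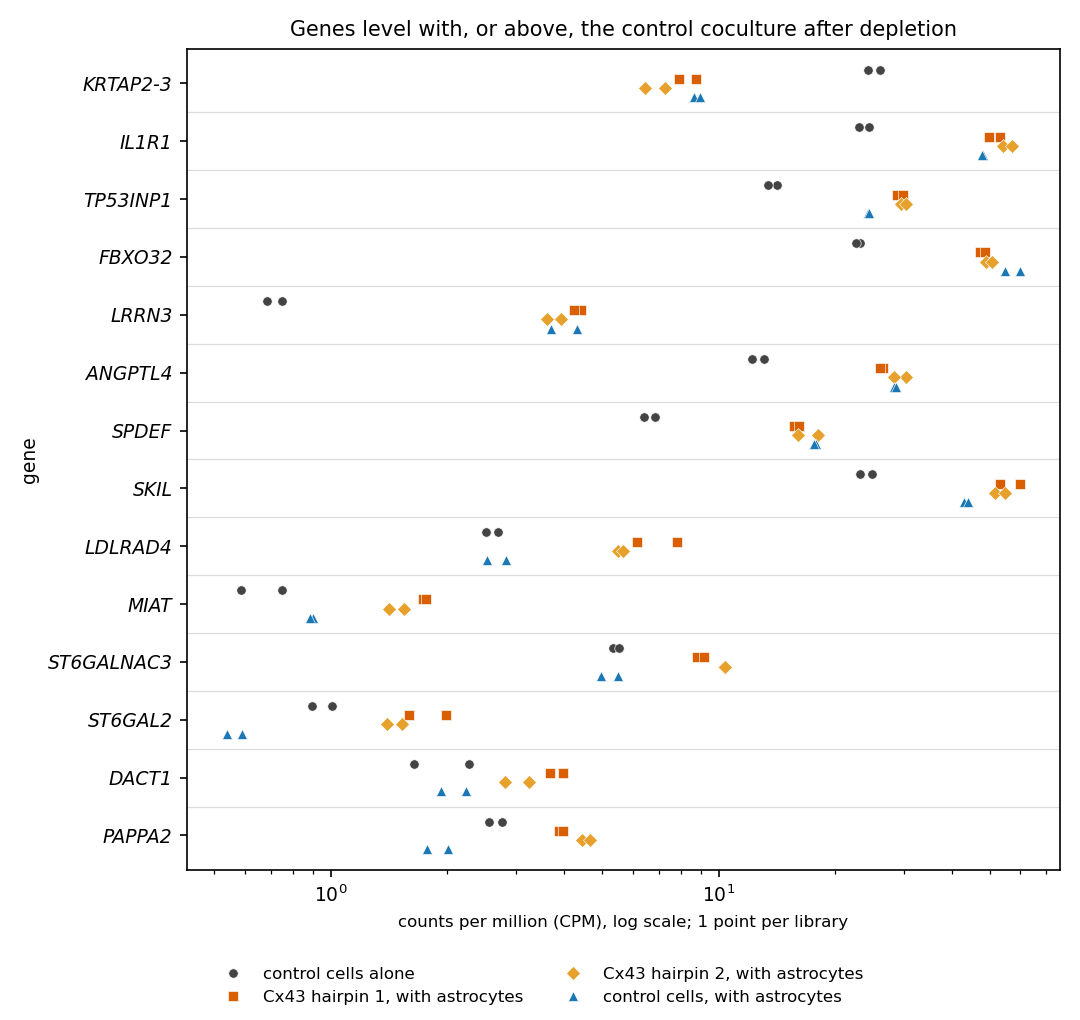
Levels in each library, in CPM on a log axis, of the 8 genes chosen for their closeness to the control coculture (upper rows, KRTAP2-3 to SKIL) and of the 6 that were higher than in both control groups (lower rows, LDLRAD4 to PAPPA2). In the upper rows squares and diamonds sit near the triangles, and in the lower rows both libraries of the control coculture lie to the left of all 4 depleted libraries.

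TGF-beta target genes held both kinds. Of 30 tested, 14 rose and 5 fell, and without control library 1 there were 9 rises and 2 falls. The falls numbered 3 without either hairpin 2 library. BHLHE40, a clock-related repressor, was at 14.1 and 14.0 CPM in control cells alone, 33.5 to 37.7 CPM after depletion and 50.9 and 48.9 CPM in the control coculture (log2FC 1.34 ± 0.06, adjusted p = 1.57e-05). CDKN2B, which encodes the cell cycle inhibitor p15, was at 7.5 and 7.23 CPM, then 17.1 and 17.8 CPM with hairpin 1 and 13.0 and 12.6 CPM with hairpin 2, and 10.3 and 10.7 CPM in the control coculture (log2FC 1.02 ± 0.07, adjusted p = 9.99e-05). SMAD7 and PMEPA1, both feedback inhibitors of the pathway, rose by 0.79 ± 0.07 and 0.87 ± 0.08 and exceeded the control coculture by 0.35 ± 0.07 and 0.36 ± 0.08 (adjusted p of 0.0197 and 0.0292). ID3, a helix-loop-helix inhibitor better known as a BMP target, went the other way, from 25.9 and 27.4 CPM to 8.64 to 13.4 CPM, with 12.8 and 15.2 CPM in the control coculture (log2FC -1.26 ± 0.15, adjusted p = 0.00144).

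Of 14 tested Notch genes 5 rose and none fell, with 3 rises without control library 1 and 2 without control library 2. The ligand JAG1 was at 50.6 and 46.8 CPM in control cells alone, 80.5 to 96.7 CPM after depletion and 79.7 and 77.3 CPM in the control coculture (log2FC 0.89 ± 0.07, adjusted p = 0.000189). LFNG, a glycosyltransferase that modifies Notch, rose by 0.75 ± 0.07 (adjusted p = 0.000427). Of 19 tested p53 targets 9 rose and 1 fell, and 4 rose without control library 1. The fall was not called without control library 2. BTG2, an antiproliferative gene, was at 6.26 and 5.88 CPM, 12.9 to 14.1 CPM, and 14.3 and 13.3 CPM in the control coculture (log2FC 1.16 ± 0.08, adjusted p = 0.000105). CDKN1A, which encodes p21, rose by 0.50 ± 0.05 (adjusted p = 0.000954), and GADD45A fell by 0.64 ± 0.10 (adjusted p = 0.00514).

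Of 30 tested genes of the unfolded protein response and the ATF4 pathway, 13 rose and 3 fell. The rises numbered 4 without either control library and 6 and 5 without hairpin 2 library 1 and 2. No fall was called without control library 1 or hairpin 2 library 2, and 5 were called without hairpin 1 library 1. The members went in different directions: the ATF4 target TRIB3 was at 121 and 117 CPM in control cells alone, 156 to 172 CPM after depletion and 99.2 and 98.1 CPM in the control coculture (log2FC 0.45 ± 0.05, adjusted p = 0.00154). HSPA5, the endoplasmic reticulum chaperone BiP, was at 239 and 216 CPM, 170 to 184 CPM, and 291 and 304 CPM (log2FC -0.34 ± 0.06, adjusted p = 0.00907). It was not called without control library 1 (0.0924) or hairpin 2 library 2 (0.0511). The stress regulators SESN2 and XBP1 rose by 0.53 ± 0.07 and 0.43 ± 0.06. Of secreted growth factors, VEGFA rose by 0.57 ± 0.05, BMP2 by 0.75 ± 0.10 and PDGFA by 0.56 ± 0.07, while FGF1 fell from 38.3 and 39.8 CPM to 20.8 to 21.1 CPM (log2FC -0.90 ± 0.07, adjusted p = 0.000153). In that list 7 of 29 rose and 6 fell. Those 7 became 4, 3 and 4 without control library 1, control library 2 and hairpin 2 library 2, and the 6 became 3 without each of these libraries.

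**Figure D4:**
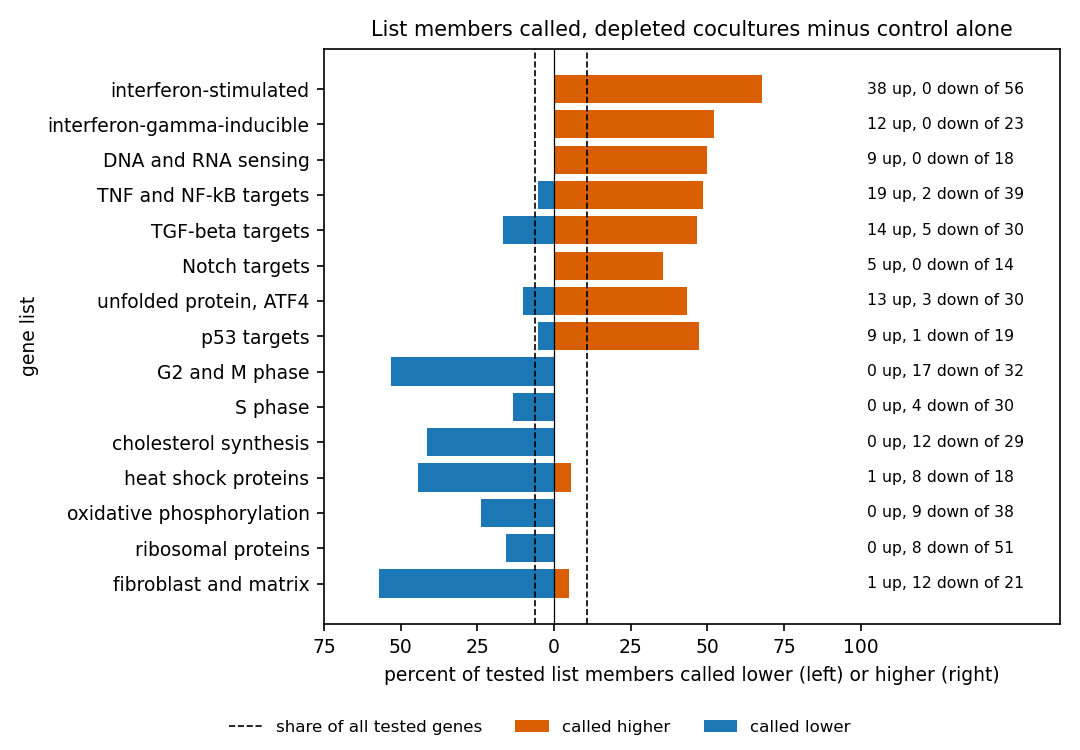
Percent of tested members of 15 gene lists that rose (orange, right) or fell (blue, left) in the depleted cocultures against control cells alone, with the counts at the right and dashed lines at the shares of all tested genes, 10.8% and 6.34%. The interferon-stimulated bar is the longest on the right, and G2 and M phase and the fibroblast and matrix list are the longest on the left.

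The largest fall, in KRTAP2-3, was smaller than each of the 12 largest rises. The falls were chosen by the same rule, with all depleted libraries below both control libraries. Among the 12 largest, RGS4, a regulator of G-protein signalling, was at 26.2 and 25.5 CPM in control cells alone, 10.1 and 8.73 CPM with hairpin 1, 10.5 and 9.82 CPM with hairpin 2, and 15.5 and 15.3 CPM in the control coculture (log2FC -1.40 ± 0.07, adjusted p = 2.77e-05). SPNS2, the sphingosine-1-phosphate exporter, was at 5.42 and 5.07 CPM, 1.39 to 2.43 CPM, and 2.26 and 2.04 CPM (log2FC -1.41 ± 0.13, adjusted p = 0.000369). DMBT1, a scavenger receptor, fell by 1.19 ± 0.18 (adjusted p = 0.00425). In RGS4 the depleted libraries were below the control coculture as well, and in SPNS2 they overlapped it. In 4 of the 12 the size rested on control library 1: PABPC1L was at 10.6 CPM there and 3.64 CPM in control library 2, SPTAN1 at 68.9 and 27.4 CPM, LY6G5B at 1.76 and 0.873 CPM and YJEFN3 at 1.99 and 1.02 CPM. Without control library 1 their log2FC were -0.57, -0.41, -0.69 and -0.62, none called, and none was called without either hairpin 2 library (adjusted p from 0.0586 to 0.0946). ANO2 fell by 1.52 ± 0.29 (adjusted p = 0.0104) and was not called without either control library (adjusted p of 0.0678 and 0.0679).

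**Figure D5:**
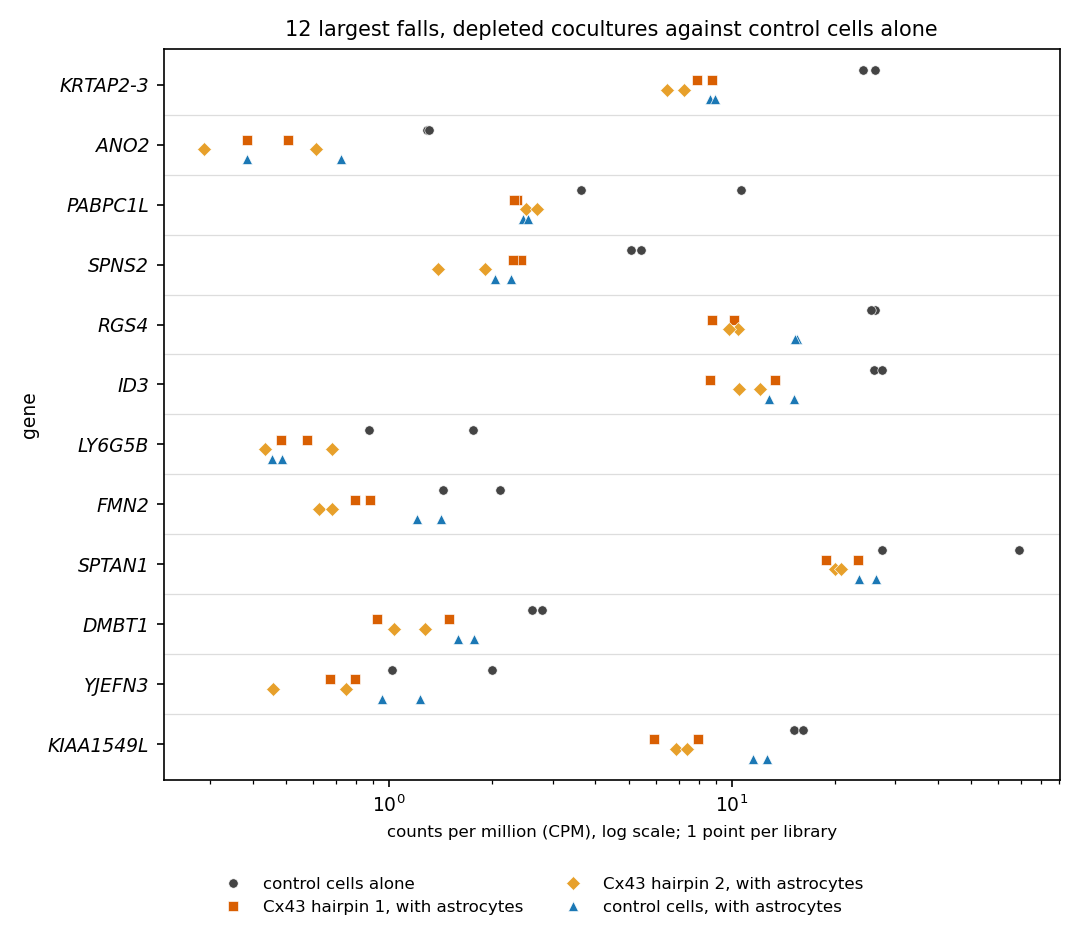
Levels of the 12 genes with the largest falls in each library, in CPM on a log axis, with 1 point per library. The rule of choice required both circles, control cells alone, to lie to the right of the depleted libraries. In KRTAP2-3, RGS4 and SPNS2 the circles lie close together, whereas in PABPC1L and SPTAN1 they are far apart.

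Genes of G2 and M phase fell by small amounts. Of 32 tested, none rose and 17 fell, beside 6.34% of all tested genes that fell, with a median log2FC of -0.32. There were 6 falls without control library 1, 9 without hairpin 2 library 1 and 6 without hairpin 2 library 2. CDC20, an activator of the anaphase-promoting complex, was at 305 and 305 CPM in control cells alone, 231, 221, 222 and 208 CPM after depletion, and 251 and 253 CPM in the control coculture (log2FC -0.47 ± 0.05, adjusted p = 0.00135). CCNB1, which encodes cyclin B1, fell by 0.57 ± 0.08 and the mitotic kinase PLK1 by 0.37 ± 0.05 (adjusted p of 0.00352 and 0.00367). In both, the depleted libraries lay below the control cells alone without overlap. Of 30 S-phase genes 4 fell and none rose, beside 6.34% of all tested genes that fell. The falls were led by the thymidine kinase gene TK1 (log2FC -0.48 ± 0.07, adjusted p = 0.00369). Those 4 became 1 and 2 without control library 1 and 2, 2 and 1 without hairpin 2 library 1 and 2, and 8 without hairpin 1 library 1.

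In cholesterol synthesis 12 of 29 genes fell and none rose. Without control library 1 and 2 there were 2 and 4 falls, and without hairpin 2 library 1 and 2 there were 5 and 3. ACAT2, which makes acetoacetyl-CoA, was at 73.5 and 80.7 CPM in control cells alone, 47.3 to 55.2 CPM after depletion and 58.9 and 61.6 CPM in the control coculture (log2FC -0.61 ± 0.07, adjusted p = 0.00174). Heat shock proteins (1 rise and 8 falls of 18), oxidative phosphorylation (9 falls of 38) and ribosomal proteins (8 falls of 51) depended on single libraries. Of all tested genes 6.34% fell. Without control library 1 there were 0 falls in each of these 3 lists, and without control library 2 there were 2, 0 and 0. Without hairpin 2 library 1 there were 2, 3 and 2, and without hairpin 2 library 2 there were 0, 1 and 0. The heat shock rise was not called without any 1 of these 4 libraries. Without hairpin 1 library 1 there were 12, 26 and 40.

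The fibroblast and matrix genes, which this mesenchymal-like carcinoma line also expresses, fell in 12 of 21 and rose in 1. The counts moved with control library 1: without it 7 fell and 2 rose, without hairpin 2 library 2 there were 6 falls, and without hairpin 1 library 1 there were 2 rises. FN1, which encodes fibronectin and was chosen after its values were seen, was at 1185 CPM in control library 1, 414 CPM in control library 2 and 334 to 383 CPM after depletion, and its log2FC of -1.12 ± 0.30 (adjusted p = 0.0374) became -0.19 without control library 1 (adjusted p = 0.233). It was not called with a replicate block (0.0771) or without either hairpin 2 library (0.101 and 0.117). COL1A1 was at 832 and 517 CPM in control cells alone, 336 to 402 CPM after depletion and 654 and 602 CPM in the control coculture (log2FC -0.84 ± 0.16, adjusted p = 0.0103, but 0.0593 without control library 1 and 0.0515 without hairpin 2 library 2). TAGLN, an actin-binding protein, had close control values, 77.5 and 77.1 CPM, and 40.9 to 55.3 CPM after depletion (log2FC -0.65 ± 0.07, adjusted p = 0.000848). MFAP5, a microfibril protein, fell by 1.10 ± 0.11 and the surface glycoprotein THY1 by 0.50 ± 0.06. PDGFRB, the receptor for PDGF-BB, rose from 4.92 and 4.34 CPM to 6.52 to 8.50 CPM (log2FC 0.74 ± 0.10, adjusted p = 0.00248).

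Several astrocyte and microglia markers were higher in the depleted cocultures than in control cells alone. Of 9 tested neuron markers and 7 tested endothelium markers none was called. Of 6 tested oligodendrocyte markers 1 rose and 1 fell, beside 10.8% and 6.34% of all tested genes. GFAP was at 8.79 and 8.52 CPM in control cells alone, 16.5 and 16.9 CPM with hairpin 1, 11.7 and 12.2 CPM with hairpin 2, and 13.8 and 12.8 CPM in the control coculture (log2FC 0.71 ± 0.07, adjusted p = 0.000675). SOX2 rose by 0.55 ± 0.07 (adjusted p = 0.00235). ATP1B2, a sodium pump subunit of astrocytes, had 2 and 3 counts in control cells alone, 14 to 23 counts after depletion and 15 and 12 counts in the control coculture (log2FC 2.78 ± 0.43, adjusted p = 0.00452, but 0.0523 without control library 1). Of the 20 tested astrocyte markers 6 rose and 2 fell, or 2 and 1 without control library 1, and the median log2FC was 0.07. The other rises were GPM6B (0.57), NTRK2 (0.63) and SLC1A3 (0.41). The falls were 1 without either hairpin 2 library. Astrocyte RNA carried over in the pull-down was not tested as a part of any rise. Of the microglia markers AIF1, TYROBP and C1QA had 0 counts in all libraries, and the 6 tested summed to 209 to 213 CPM in control cells alone and 259 to 290 CPM after depletion. That sum was mostly CD74 and LAPTM5, both abundant in control cells alone. CD74 had 5323 and 5880 counts there and 5213 to 6146 after depletion, and LAPTM5 had 3608 and 3993, then 5293 to 6504. Of those 6, 4 rose, or 1 without either control library and 2 without hairpin 2 library 2. TMEM119, a microglial membrane protein chosen after its values were seen, had 5 and 2 counts in control cells alone, 13 to 17 after depletion, and 16 and 4 in the control coculture. LAPTM5, a lysosomal membrane protein, was at 84.6 and 83.0 CPM in control cells alone and 128 to 148 CPM after depletion (log2FC 0.75 ± 0.06, adjusted p = 0.000171).

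Of 18 tested genes linked to brain metastasis, 4 rose and 3 fell, beside 10.8% and 6.34% of all tested genes, and the median log2FC was -0.00355. Without control library 2 there were 2 rises and 0 falls, and without either hairpin 2 library there were 2 rises. ANGPTL4 is among the rises, as is CSF3, the granulocyte colony-stimulating factor, at 3.16 and 4.12 CPM in control cells alone, 7.40 and 6.15 CPM with hairpin 1, 12.9 and 12 CPM with hairpin 2, and 21.0 and 24.0 CPM in the control coculture (log2FC 1.33 ± 0.13, adjusted p = 0.000664). The other rises were PLOD2 (log2FC 0.25) and PCDH7 (log2FC 0.36), the latter not called with a replicate block (edgeR adjusted p = 0.088). The sialyltransferase ST6GALNAC5 fell by 0.70 ± 0.11 (adjusted p = 0.00623) and the plasminogen activator inhibitor SERPINB2 by 0.74 ± 0.13 (adjusted p = 0.00776). Neither fall was called without control library 2, with adjusted p of 0.0604 and 0.0764. Outside this list, the sialyltransferase gene ST8SIA1, which encodes the GD3 ganglioside synthase, also rose. It was at 1.73 and 1.91 CPM in control cells alone, 5.95 to 6.50 CPM after depletion and 8.38 and 6.33 CPM in the control coculture (log2FC 1.78 ± 0.15, adjusted p = 0.000217).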

How the data were processed

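The 8 TRAP libraries were made with the TruSeq RNA v2 kit, per the labels' protocols. Per the submitters' processing notes, which give no versions, TopHat2, HTSeq, DESeq2 and the build hg19 were used. Annotation, counting mode and strand are not given in the sources used here. The deposited values are whole-number counts per gene that differ in total between libraries, and were treated as raw counts. Counter entries were left out, among them not-unique alignments at 14.2% to 26.1% of a library's total.

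Counts were tested with edgeR 4.0.16 in R 4.3.3 (glmQLFit and glmQLFTest): TMM factors (0.975 to 1.03), a mean count of at least 10, 4 groups, 8 libraries in 1 fit, and Benjamini-Hochberg adjustment over 15806 genes. The common coefficient of biological variation was 7.66%. The fit was also run on simulated counts in which each gene had the same spread in every group. That setting cannot show how calls behave when the spread differs between groups, as it did here. P-values rest on 2 libraries per group, whose spread exceeded counting error (chi-square per degree of freedom 4.22 to 32.6).

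The members and lists were chosen with earlier results of these data known. Named genes were GJA1, the 12 largest rises and falls without overlap (clone, antisense and pseudogene entries left out) and 8 genes close to the control coculture. Also named were 6 per direction called the same way against both control groups, and up to 6 members per list by smallest p, with all connexin, sensing and interferon-stimulated genes. Others are marked as chosen after their values were seen. Alternatives were median-of-ratios scaling, DESeq2 1.42.0, other filters, 6 libraries, 1 depleted group, a replicate block and leaving out each library. Promoters came from a RefSeq table on GRCh38.p14, matched by symbol. Some genes of the lists are counted but not reported here by name.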

Additional observations from a re-analysis of the deposited data

How the results depend on the processing

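Median-of-ratios scaling, DESeq2, a mean count of at least 50, a fit of 6 libraries and 1 depleted group each left the counts of calls within 1.5 times of those reported. With no filter on low counts, the depleted cocultures gave 4117 calls against control cells alone (2055 lower), hairpin 1 gave 3953 (2007 lower) and hairpin 2 gave 2277 (961 lower). Leaving out 1 library gave 531 to 4717 calls (376 to 2588 higher, 155 to 2129 lower), for hairpin 1 345 to 4701 (254 to 2614 higher, 91 to 2087 lower) and for hairpin 2 218 to 2136 (183 to 1376 higher, 35 to 760 lower); where this left a group with 1 library, that library is assumed to vary like the other groups. With a replicate block there were 1502 calls (1006 higher, 496 lower), for hairpin 1 1031 (746 and 285) and for hairpin 2 663 (500 and 163). The titles number the replicates but name no batch. Correlations of replicate differences between groups ran from -0.36 to 0.18. Whether libraries of the same number shared a batch was not tested. Of the named genes, 3 changed sign when 1 library was left out, none of them called: BST2 (-0.14 to 0.025, also 0.0018 without control library 2), STAT2 (-0.035 to 0.46) and PANX2 (-0.23 to 0.056). The cause of these changes was not tested. Genes of a few counts in control cells alone, such as RSAD2 and VCAM1, have folds limited by depth.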

Other observations

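Outside the lists, several secreted factors and receptors stood at the level of the control coculture after depletion; they were chosen after their values were seen. NTN1, which encodes the guidance cue netrin-1, was at 5.13 and 4.37 CPM in control cells alone, 14.3 and 16.5 CPM with hairpin 1, 14.5 and 14.4 CPM with hairpin 2, and 16.5 and 13.5 CPM in the control coculture (edgeR log2FC against control cells alone 1.65 ± 0.12, adjusted p = 0.000126). PAPPA, a protease that frees insulin-like growth factors, was at 7.31 and 6.78 CPM, 19.2 to 23.3 CPM, and 20.6 and 18.6 CPM (log2FC 1.58 ± 0.10, adjusted p = 8.41e-05). The growth factor TGFB3 was at 5.06 and 5.05 CPM, 12.9 to 16.7 CPM, and 18.0 and 14.8 CPM (log2FC 1.48 ± 0.13, adjusted p = 0.00035). UCN2, a peptide of the corticotropin-releasing family, rose by 1.36 ± 0.13 (adjusted p = 0.00047). OXTR, the oxytocin receptor, fell from 25.9 and 24.4 CPM to 10.7 to 13.6 CPM, beside 12.6 and 11.2 CPM in the control coculture (log2FC -1.04 ± 0.07, adjusted p = 9.72e-05). In these 5 genes all depleted libraries were apart from control cells alone.

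The clone entry CTD-2328D6.1, left out by the rule on symbols, was at 1.17 and 0.582 CPM in control cells alone, 2.98 and 1.10 CPM in the control coculture, but at 1.64 and 57.9 CPM with hairpin 1 and 66.1 and 58.4 CPM with hairpin 2. Hairpin 1 library 1 was therefore at the control level and the other 3 depleted libraries were not. Its rise (log2FC 5.63 ± 1.33, adjusted p = 0.0231) was lost in 5 of 15 alternatives and was 3.55 without hairpin 1 library 2.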
